A study of Carassius auratus with 6 samples.

Results

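Krueppel-like factors were followed here in the liver of crucian carp (Carassius auratus) after 12 h of hypoxia. The members were all genes of the deposited table whose name begins with KLF and a digit, in either case, or whose description begins with Krueppel-like factor. This gave 41 of 47544 genes under 11 factor numbers, KLF4 to KLF8 and KLF11 to KLF16, and each gene copy is given by its deposited name and NCBI gene identifier. The study sequenced total RNA of whole liver in 3 control samples (titled N) and 3 samples taken at 12 h of hypoxia (titled H12h), all labelled wild-type. The labels name no strain, age or oxygen level, and no sampling time for the controls. A difference in sampling time between the groups therefore cannot be told apart from hypoxia. The labels number the samples but do not say that each is a separate fish, so p-values measure the spread between these samples, which may be technical. RNA of a bulk liver sample also cannot tell fewer cells of a type from less RNA per cell.

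Krueppel-like factors are transcription factors whose carboxy-terminal zinc fingers bind GC-rich and CACCC-box DNA, while their amino-terminal parts differ and recruit different partners. In mammals they are usually sorted by those partners into activator-type members (KLF1, KLF2, KLF4 to KLF7), members that bind the corepressor CtBP (KLF3, KLF8, KLF12) and members that bind the corepressor SIN3A (KLF9 to KLF11, KLF13, KLF14, KLF16), with KLF15 outside these groups. In mammalian liver KLF6 is induced early after injury, KLF15 drives gluconeogenesis and amino acid breakdown in fasting, and KLF2 and KLF4 mark endothelium under blood flow.

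The deposited values are read counts scaled by a factor per library and not by gene length, called normalized counts here, so they depend on gene length and the levels of different genes are not compared for abundance. Reads counted in the genes of the table numbered 15734847 to 22782649 per library, and 38944 to 41667 genes had at least 1 read. Control replicate 2 had the lowest mean correlation with its own group, 0.881, beside 0.906 and 0.910 for the other controls and 0.934 to 0.946 for the hypoxia libraries. Hypoxia replicate 2 had the highest summed normalized counts of the endothelial, macrophage, stellate cell, bile duct and exocrine pancreas marker lists of all 6 libraries, and the lowest sum of hepatocyte markers. The labelled tissue held its defining transcripts, since hepatocyte markers summed to between 707890 and 1459330 normalized counts in every library.

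After 12 h of hypoxia 6 Krueppel-like factor genes rose and none fell by limma. They were KLF6 113042235, KLF6 113066057, KLF7 113065971, KLF12 113108531, KLF12 113053170 and Klf11 113117358, and their levels rose between 2.40-fold and 6.82-fold. The test was limma on log2(normalized count + 1), with Benjamini-Hochberg adjustment over 41045 genes with a mean of at least 1 and a threshold of 0.05. It covered 40 of the 41 members and left out KLF5 113053169, which had 2 reads in all. The 6 risen members are 15% of those tested, beside 1.83% of all genes, and the count of 0 fallen members stands beside 0.417% of all genes. At an unadjusted p under 0.05, 17 members were higher and 0 lower by limma, beside 10.2% and 8.41% of all genes. With edgeR 5 members rose and 0 fell, beside 1.51% and 0.404% of all genes. With DESeq2 13 rose and 0 fell, beside 5.09% and 3.24% of the 32967 genes it gave an adjusted p. Those 13 were the 6 named above with Klf7 113108777, KLF7 113045292, Klf4 113112427, KLF4 113045260, Klf12 113109689, KLF13 113067011 and Klf16 113049894. Below, called means past the limma threshold unless another tool is named. The limma count of risen members was 3, 10 and 3 without control replicate 1, 2 or 3 and 2, 3 and 2 without hypoxia replicate 1, 2 or 3.

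Changes across the 40 tested members ran from -1.04 to 2.80 on the log2 scale with a median of 0.9996, while the median over all genes was 0.0043. The change was above 0 in 33 members, 82.5%, beside 50.2% of all genes. All 3 hypoxia libraries lay above all 3 control libraries in 19 members, where 12.4% of all genes did so, and the opposite held in 0 members and 12.2% of all genes. By subgroup, assigned from the deposited number, 3 of 19 tested activator-type members rose with a median log2 change of 1.06, 2 of 6 CtBP-binding members with a median of 1.45, and 1 of 13 SIN3A-binding members with a median of 0.40. The CtBP-binding members were 5 KLF12 genes, all above 0, and 1 KLF8 gene at -0.57. Within the activator-type members the medians ran from -0.018 for KLF5 to 2.50 for KLF6. Differences between subgroups were not tested.

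**Figure D1:**
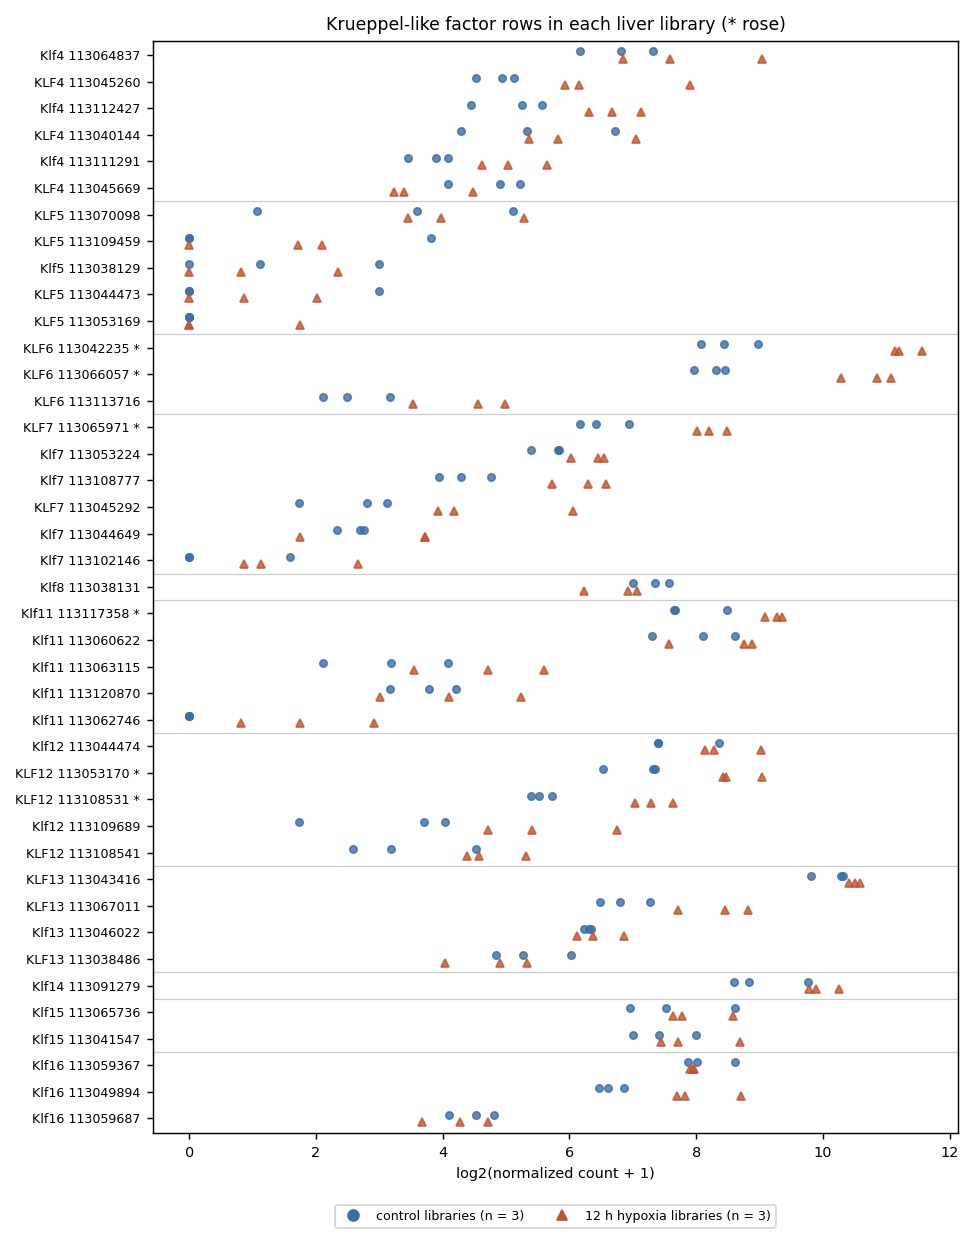
Level of each of the 41 Krueppel-like factor genes in each library, as log2(normalized count + 1), with controls as circles and 12 h hypoxia libraries as triangles, 3 each; an asterisk marks the 6 genes that rose. The hypoxia libraries of both starred KLF6 genes stand well apart from the controls, while the groups of every KLF5 and KLF15 gene overlap.

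**Figure D2:**
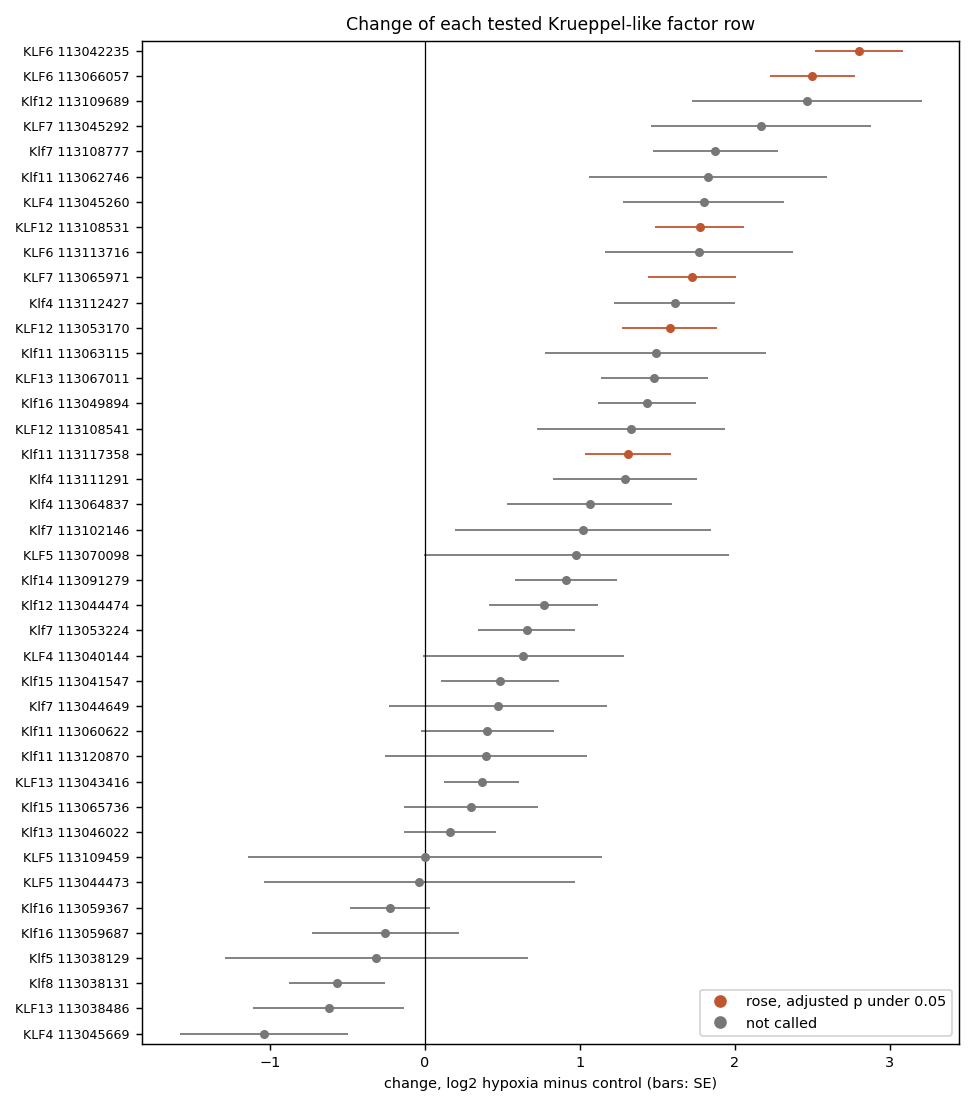
Change of each of the 40 tested genes as log2 hypoxia minus control on the log2(normalized count + 1) scale, with bars of 1 SE, ordered by size; the 6 coloured genes rose. Changes run from -1.04 to 2.80, and several large changes that were not called have wide bars.

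KLF6, a broadly expressed activator first described as a core promoter element binding protein, held the largest called changes. KLF6 113042235 measured 504, 344 and 269 normalized counts in the controls and 2264, 2346 and 3021 under hypoxia, each in replicate order, as for all genes that follow. Its lowest hypoxia library was several-fold above its highest control. Its mean rose from 373 ± 120 (SD, n = 3) to 2544 ± 416 (SD, n = 3) normalized counts, a log2 change of 2.80 ± 0.28 (SE; limma, adjusted p = 0.0015).

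KLF6 113066057 measured 348, 316 and 250 normalized counts in the controls and 2165, 1245 and 1859 under hypoxia. Here hypoxia replicate 2 was the lowest of its group and still far above every control. The log2 change was 2.50 ± 0.27 (SE; limma, adjusted p = 0.0025), and the level rose 5.76-fold. The third gene, KLF6 113113716, carries the RefSeq symbol klf6b and was measured at 3.30, 4.62 and 8.01 normalized counts in the controls and 22.4, 30.6 and 10.6 under hypoxia. Its groups did not overlap, but its log2 change of 1.77 ± 0.61 (SE) did not pass the test (limma, adjusted p = 0.18). Both called KLF6 genes remained called with any 1 of the 6 libraries left out, with log2 changes of 2.59 to 3.05 and 2.33 to 2.73.

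KLF7, the closest relative of KLF6 and known in mouse for axon growth, rose in 1 of 6 genes. KLF7 113065971, which RefSeq lists as a pseudogene, measured 122, 84.4 and 71.1 normalized counts in the controls and 358, 258 and 294 under hypoxia. Its groups were clearly apart, and its log2 change was 1.73 ± 0.28 (SE; limma, adjusted p = 0.017). Klf7 113108777 stood just short of the threshold with 14.3, 18.5 and 26.0 normalized counts in the controls and 94.5, 52.0 and 77.3 under hypoxia. The hypoxia libraries were all higher, and the log2 change was 1.87 ± 0.40 (SE; limma, adjusted p = 0.051). The other 4 KLF7 genes had log2 changes of 0.47 to 2.17 and were not called by limma, while DESeq2 called Klf7 113108777 (adjusted p = 0.0022) and KLF7 113045292 (adjusted p = 0.039), the gene with the change of 2.17.

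Of the KLF7 genes not called, Klf7 113102146 had only 2 reads over the controls and 9 over the hypoxia libraries, a ratio of 3.69 for normalized counts with a 95% counting interval of 0.764 to 35.1. The called KLF7 gene did not keep its call without control replicate 3 or without any single hypoxia library, where its adjusted p by limma was 0.051 to 0.10.

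KLF12, a CtBP-binding repressor of the gene for the transcription factor AP-2alpha, rose in 2 of 5 genes. KLF12 113108531 measured 45.1, 52.0 and 41.0 normalized counts in the controls and 156, 130 and 198 under hypoxia. All hypoxia libraries were well above the controls, which differed little among themselves. The log2 change was 1.77 ± 0.29 (SE; limma, adjusted p = 0.017), a rise of 3.50-fold.

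KLF12 113053170 measured 158, 91.3 and 162 normalized counts in the controls and 341, 352 and 527 under hypoxia. Control replicate 2 was the lowest library and hypoxia replicate 3 the highest, with no overlap. The log2 change was 1.58 ± 0.31 (SE; limma, adjusted p = 0.037). Klf12 113109689 had the larger log2 change of 2.47 ± 0.74 (SE), but its hypoxia libraries ranged from 25.2 to 106 normalized counts and it was not called by limma (adjusted p = 0.14) but was by DESeq2 (adjusted p = 0.020). Both called KLF12 genes lost their call in most fits with a library left out, KLF12 113108531 in 4 of 6 and KLF12 113053170 in 5 of 6, with adjusted p up to 0.096 and 0.14 by limma.

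KLF8, the other CtBP-binding number, which promotes cell migration in human tumour cells, had a single gene with a change below 0. Klf8 113038131 measured 189, 127 and 162 normalized counts in the controls and 74.4, 120 and 133 under hypoxia. Hypoxia replicate 1 was the lowest library, but the groups overlapped, and the log2 change of -0.57 ± 0.31 (SE) was not called (limma, adjusted p = 0.36).

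KLF11, a SIN3A-binding repressor induced by TGF-beta in human cells, rose in 1 of 5 genes and only by a narrow margin. Klf11 113117358 measured 199, 202 and 356 normalized counts in the controls and 620, 544 and 653 under hypoxia. Control replicate 3 was the highest control but did not reach the hypoxia libraries. The log2 change was 1.31 ± 0.28 (SE; limma, adjusted p = 0.0499), and the call held without control replicate 3 but in no other fit with a library left out, where adjusted p reached 0.18 by limma. It was also lost with pseudocounts of 0.5 and 5, a mean of at least 10, TMM scaling and edgeR, with adjusted p of 0.0505 to 0.0762, and DESeq2 called it (adjusted p = 0.0047). Klf11 113062746, listed as a pseudogene in RefSeq, had 0 reads over the controls and 11 over the hypoxia libraries, which is at least 3.01-fold higher with a floor of 3 reads over the control group; the 95% counting interval of the ratio has a lower limit of 2.06. The remaining 3 KLF11 genes overlapped between groups.

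KLF4, a factor of endothelial and epithelial cells and of pluripotency, had no gene called by limma or edgeR among 6, although 3 were higher in every hypoxia library. Klf4 113112427 measured 20.9, 46.2 and 37.0 normalized counts in the controls and 100, 138 and 78.1 under hypoxia. The groups were apart, with hypoxia replicate 2 the highest, and the log2 change was 1.61 ± 0.39 (SE; limma, adjusted p = 0.078). KLF4 113045260, whose RefSeq symbol is klf2b and thus names the flow-induced endothelial factor KLF2, measured 29.7, 22.0 and 34.0 normalized counts in the controls and 60.3, 238 and 70.0 under hypoxia. Hypoxia replicate 2 was several-fold above its group, and the log2 change of 1.80 ± 0.52 (SE) was not called (limma, adjusted p = 0.12). DESeq2 called both of these genes, with adjusted p of 0.0099 and 0.012.

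Hypoxia replicate 2 was the highest hypoxia library in 5 of the 6 KLF4 genes, beside 16 of 40 Krueppel-like factor genes tested and 39.3% of all genes. The exception was KLF4 113045669, with the RefSeq symbol klf17, whose log2 change was -1.04 ± 0.54 (SE; limma, adjusted p = 0.34). Hypoxia replicate 2 exceeded the mean log2 value of the other hypoxia libraries by a median of 1.14 in KLF4 genes, while the KLF6 median was -0.16. The median was 0.11 over all tested Krueppel-like factor genes and 0.037 over all genes. Some genes of other numbers were also highest in hypoxia replicate 2. KLF7 113045292 and Klf12 113109689 stood there at 4.21 and 3.19 times the mean of the other hypoxia libraries. The same library held 3912 normalized counts of summed endothelial markers against 2171 and 2325 in the other hypoxia libraries, 7669 of macrophage markers against 3041 and 2003, and 12652 of stellate cell markers against 3848 and 3444. The part of these cells in the KLF4 values was not tested.

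**Figure D3:**
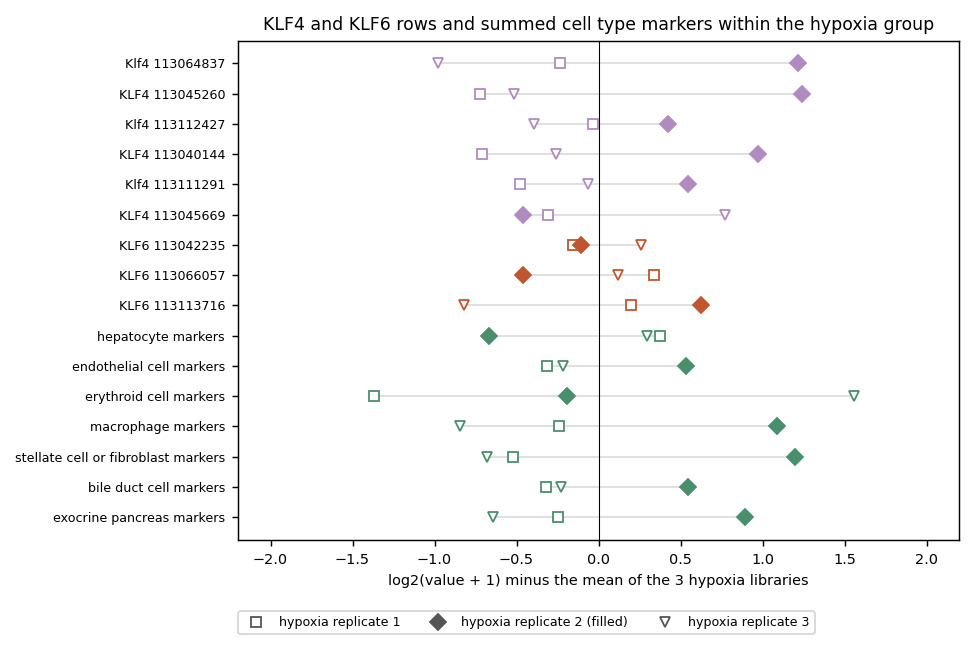
KLF4 genes, KLF6 genes and summed cell type markers in the 3 hypoxia libraries, each as log2(normalized count + 1) minus its mean over those libraries; filled diamonds are hypoxia replicate 2, open squares replicate 1 and open triangles replicate 3. Replicate 2 is the highest in 5 of 6 KLF4 genes and in 5 of the 7 marker sums, and is not the highest in the 2 called KLF6 genes.

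KLF5, a factor of dividing epithelial cells, was little measured, and none of its 4 tested genes was called. KLF5 113070098 measured 1.10, 33.5 and 11.01 normalized counts in the controls and 37.8, 9.94 and 14.6 under hypoxia, and the groups overlapped. Its log2 change was 0.98 ± 0.98 (SE; limma, adjusted p = 0.63), and the other KLF5 genes stayed at or below 13.01 normalized counts in every library. In the goldfish RefSeq gene order KLF5 113044473 and KLF5 113053169 lie next to Klf12 113044474 and KLF12 113053170, and Klf5 113038129 next to Klf8 113038131, with 0 genes between them. The KLF12 neighbours had log2 changes of 0.77 and 1.58 and the Klf8 neighbour -0.57, and the called KLF12 113053170 stood beside the KLF5 gene with too few reads to test.

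Among the SIN3A-binding numbers without a called gene, 2 came close to the limma threshold and were called by DESeq2, Klf16 113049894 with adjusted p of 0.0032 and KLF13 113067011 with 0.0046. Klf16 113049894, whose RefSeq symbol is klf9, the number induced by glucocorticoid and thyroid hormone in mammals and frogs, measured 96.7, 116 and 87.1 normalized counts in the controls and 226, 418 and 208 under hypoxia. The hypoxia libraries were all higher, with replicate 2 the highest, and the log2 change was 1.43 ± 0.32 (SE; limma, adjusted p = 0.056). The other 2 KLF16 genes, named for a factor first found to repress a dopamine receptor gene in mouse, had log2 changes of -0.23 and -0.26.

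KLF13 113067011, named for a factor that activates the chemokine gene RANTES in human T cells, measured 110, 154 and 88.1 normalized counts in the controls and 209, 452 and 348 under hypoxia. It did not overlap between groups, and its log2 change was 1.48 ± 0.34 (SE; limma, adjusted p = 0.066). KLF13 113043416 was among the 3 members of highest mean normalized count, without regard to length, with 895, 1246 and 1270 normalized counts in the controls and 1447, 1359 and 1537 under hypoxia. Every hypoxia library was above the controls by a small step, and the log2 change of 0.36 ± 0.24 (SE) was not called (limma, adjusted p = 0.45). The remaining KLF13 genes had log2 changes of 0.16 and -0.62.

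Klf14 113091279, named for a mammalian regulator of adipose gene expression, measured 385, 869 and 453 normalized counts in the controls and 947, 1216 and 878 under hypoxia. Control replicate 2 came close to the hypoxia libraries without passing them, and the log2 change was 0.91 ± 0.33 (SE; limma, adjusted p = 0.19). KLF15, the fasting factor, was not called in either of its 2 genes. Klf15 113041547 measured 127, 254 and 169 normalized counts in the controls and 209, 174 and 414 under hypoxia, where only hypoxia replicate 3 stood above the controls. Its log2 change was 0.48 ± 0.38 (SE; limma, adjusted p = 0.53), and that of Klf15 113065736 was 0.29 ± 0.43 (SE; limma, adjusted p = 0.75).

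Since reads of near-identical copies can be split between them in ways the sources used here do not state, the copies of each number were also summed before the test. Among the 11 sums KLF6, KLF7 and KLF12 rose and none fell, where 1.76% of 17981 names rose and 0.467% fell. Summed KLF6 measured 856, 665 and 527 normalized counts in the controls and 4451, 3622 and 4891 under hypoxia. Every hypoxia library was far above every control, and the log2 change was 2.68 ± 0.24 (SE; limma, adjusted p = 0.0018).

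Summed KLF7 measured 206, 166 and 150 normalized counts in the controls and 534, 486 and 487 under hypoxia, and its hypoxia libraries lay close together. Its log2 change was 1.53 ± 0.21 (SE; limma, adjusted p = 0.0094). Its listed pseudogene KLF7 113065971 held a mean of 92.5 of 174 normalized counts in the controls and 303 of 502 under hypoxia. Summed KLF12 measured 408, 321 and 548 normalized counts in the controls and 1099, 919 and 1053 under hypoxia, with the groups apart. Its log2 change was 1.29 ± 0.23 (SE; limma, adjusted p = 0.033). The KLF6 sum was called with any library left out, the KLF7 sum in 4 of 6 such fits and the KLF12 sum in 2 of 6, and only 1 sum was called without hypoxia replicate 1 or without hypoxia replicate 3. KLF11 as a sum was not called, with a log2 change of 0.89 ± 0.21 (SE; limma, adjusted p = 0.077), while DESeq2 called it (adjusted p = 0.0040) beside the same 3 sums. No sum was called as lower by edgeR or DESeq2, and no sum below 0 had an unadjusted p under 0.05.

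**Figure D4:**
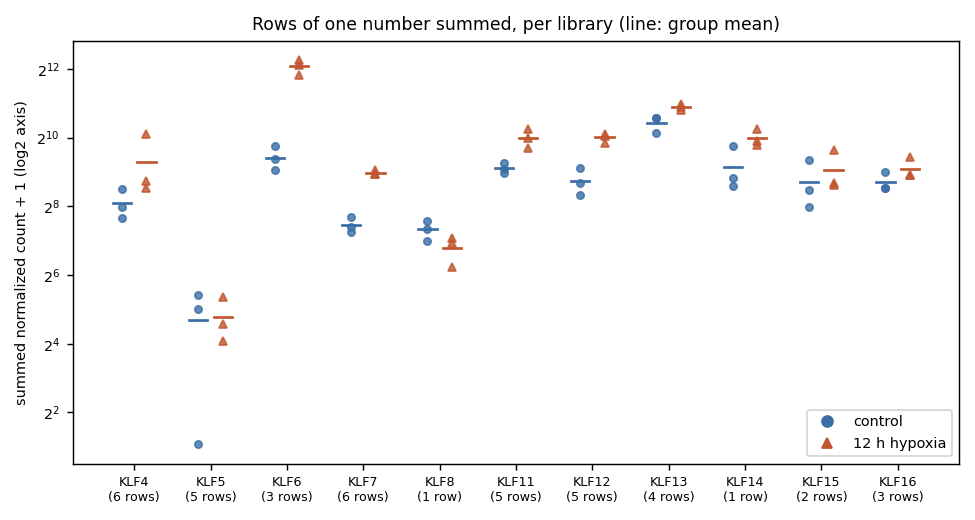
Normalized counts of the genes of each number summed per library, on a log2 axis, with controls as circles, 12 h hypoxia libraries as triangles and lines at the group means (n = 3 each). KLF6 shows the widest gap, from 683 to 4321 normalized counts, and KLF7 and KLF12 are also apart without overlap. The KLF4, KLF11, KLF13 and KLF14 sums, which limma did not call, do not overlap either.

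The copies of a number were compared in how much they changed, by limma on their log2 difference within each library. Of 69 pairs among members, 19 held a called gene. Among those 19, 0 differed in their change, where 1.16% of 45754 pairs over all names did. At an unadjusted p under 0.05 by limma 1 of the 19 passed, and the share over all pairs was not computed. That pair was Klf7 113053224 and KLF7 113065971. Their log2 changes differed by -1.07 with a 95% interval of -1.92 to -0.22 (limma, adjusted p = 0.23). Several pairs without a called gene had a lower unadjusted p by limma, down to 0.0012. The called KLF6 genes differed by 0.30 with an interval of -0.30 to 0.91. Of all 69 pairs the lowest adjusted p by limma was 0.072, for Klf16 113049894 against Klf16 113059367, which differed by 1.66. Pairs and sums follow the deposited number, so this pair sets a gene with the RefSeq symbol klf9 against one without a symbol of its own, and the KLF4 pairs and sum include klf2b and klf17. That pair (adjusted p = 0.014) and the pair KLF13 113038486 and KLF13 113067011 were called as differing without control replicate 2, and no pair was in any other fit with a library left out. The copy test was not run with edgeR or DESeq2.

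The share of KLF6 in all Krueppel-like factor reads was larger in every hypoxia library. All members together held 4779, 5515 and 4887 normalized counts in the controls and 11073, 11472 and 12327 under hypoxia. KLF6 genes made up 17.9%, 12.1% and 10.8% of this in the controls and 40.2%, 31.6% and 39.7% under hypoxia. Without KLF6 the members still held 3923 to 4850 normalized counts in the controls and 6622 to 7851 under hypoxia. These sums and shares are descriptions over the members, weight long transcripts more, and were not tested.

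Deposited names and RefSeq symbols did not always give the same number. RefSeq gives a symbol of their own to 6 members, of which klf6b, klf7a and klf11a carry the deposited number while klf2b, klf17 and klf9 do not. In the other direction, ZNF774 113107278 is klf3 in RefSeq and ZNF420 113080772 is klf4, and the naming rule does not include them. Their log2 changes were 1.43 ± 0.59 (SE; limma, adjusted p = 0.24) and 1.65 ± 0.61 (SE; limma, adjusted p = 0.20). In the authors' deposited table, 13 of the members had an adjusted p under 0.05 and were higher, 6 of them those called here, and 0 were lower, beside 1629 higher and 980 lower genes in all, 3.43% and 2.06% of the table. They were the same 13 members that DESeq2 called. The deposited log2 change of KLF6 113042235 was 2.77115, beside 2.77117 by DESeq2 here. Both use the same reads, so the deposited count is not separate evidence.

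**Figure D5:**
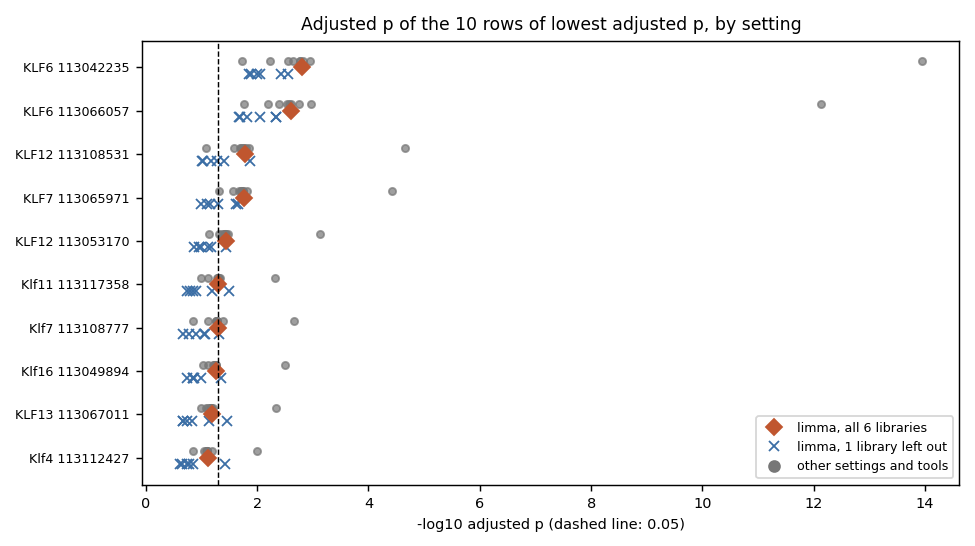
Adjusted p, as its negative log10, of the 10 Krueppel-like factor genes of lowest adjusted p under each setting, with the limma test on all 6 libraries as diamonds, fits with 1 library left out as crosses, and other settings and tools as circles; the dashed line is 0.05. Both KLF6 genes lie right of the line in every setting, and the other 4 called genes cross it.

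Genes known to act with or through Krueppel-like factors were read from the same fit. Their lists were chosen with earlier results of these data known, so the counts are descriptions and not separate evidence. Beside the called counts of these lists and of the marker lists, 1.83% of all genes rose and 0.417% fell by limma. By edgeR 1.51% rose and 0.404% fell, and by DESeq2 5.09% and 3.24% of the genes it gave an adjusted p. None of the SP factors (12 tested), KLF corepressors (31), KLF coactivators (35), members of the MEK5-ERK5-MEF2 route to KLF2 and KLF4 (25) or ubiquitin ligases of KLF proteins (22) was called by limma or edgeR, and DESeq2 called 0, 2, 0, 1 and 1 of them. At an unadjusted p under 0.05 these lists held 1, 6, 2, 2 and 6 genes by limma, where 18.6% of all genes passed in either direction. Their medians were 0.39, 0.24, 0.0015, 0.13 and 0.34 on the log2 scale. The genes of lowest p were Sp1 113068116 (0.52 ± 0.23), SIN3A 113066646 (1.22 ± 0.35), ncoa3 113110983 (0.77 ± 0.28), MAP3K3 113099578 (1.496 ± 0.42) and WWP1 113042666 (-1.07 ± 0.31), each a log2 change with its SE and with adjusted p of 0.12 to 0.26 by limma.

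In the list of the TGF-beta route to KLF10 and KLF11, 6 of 52 genes rose and none fell by limma and by edgeR. The list's median log2 change was 0.96. The 6 genes called by limma were all copies of SKIL, SKI and SMAD7. No ligand, receptor or other SMAD gene of the list was called by limma. Skil 113045490, a corepressor of SMAD proteins, went from 201 ± 64.9 to 1432 ± 508 normalized counts (SD, n = 3), a log2 change of 2.80 ± 0.35 (SE; limma, adjusted p = 0.0045). Smad7 113039053, the inhibitory SMAD, changed by 2.34 ± 0.30 (SE; limma, adjusted p = 0.0054), and SKI 113095930, a relative of Skil, by 2.68 ± 0.37 (SE; limma, adjusted p = 0.0075) on the log2 scale. The other called genes were SMAD7 113064453, Skil 113066166 and Skil 113042413, further copies of these genes. DESeq2 called 11 as risen and 0 as fallen, adding Skil 113119262, Skil 113119466, SMAD3 113118366, SMAD4 113116616 and the ligand gene tgfb1 113058184. Skil 113045490 and Smad7 113039053 remained called with any library left out and SKI 113095930 in 5 of 6 such fits.

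The list of hormone receptors that act upstream of KLF9 and KLF15 also holds 3 genes that glucocorticoids induce, FKBP5, TSC22D3 and PER1, and it had 6 of 22 risen and none fallen by limma and by edgeR, and a median log2 change of 0.89. The risen genes were all among these induced genes, copies of the clock gene PER1 and of FKBP5, a co-chaperone of the glucocorticoid receptor. PER1 113051396 changed by 3.16 ± 0.32, Per1 113054209 by 1.82 ± 0.21 and Per1 113106279 by 2.13 ± 0.32 on the log2 scale with SE (limma, adjusted p = 0.0015 to 0.011). DESeq2 called 8 as risen, adding Tsc22d3 113057712 and Tsc22d3 113057799, and 1 as fallen, the thyroid hormone receptor gene thraa 113044983. No receptor gene of that list was called by limma. The first 2 of these genes remained called with any library left out and Per1 113106279 in 4 of 6 such fits.

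Among targets, both PCK1 copies, which encode a gluconeogenic enzyme, rose in the KLF15 list of 18 genes, whose median was 0.13. PCK1 113081964 changed by 6.73 ± 0.69 and PCK1 113050105 by 6.48 ± 0.69 on the log2 scale with SE (limma, adjusted p = 0.0016 and 0.0020). In the list of endothelial targets of KLF2 and KLF4, 2 of 20 rose by limma and 5 by DESeq2, with a median of 1.15, s1pr1 113040134 by 1.87 ± 0.28 (SE; limma, adjusted p = 0.011) and S1pr1 113046675 by 2.59 ± 0.47 (SE; limma, adjusted p = 0.026), both encoding a sphingosine 1-phosphate receptor and called in 3 and 2 of 6 fits with a library left out. None of 23 targets of KLF6 and KLF10 in liver was called by limma or edgeR, 3 were by DESeq2, and 6 had an unadjusted p under 0.05 by limma, with ENG 113086831, the TGF-beta coreceptor endoglin, at 1.49 ± 0.38 (SE; limma, adjusted p = 0.086) on the log2 scale. This list shares 5 copies of tgfb1 with the TGF-beta list, of which limma called 0 and DESeq2 1.

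Among endothelial markers 3 of 21 rose by limma, 2 copies of kdr, a VEGF receptor, and the transcription factor gene FLI1 113118700. They were called in 1, 2 and 0 of 6 fits with a library left out, and DESeq2 called 7 of the 21. The marker list shares 5 genes, copies of PECAM1 and TIE1, with the endothelial targets, of which limma called 0 and DESeq2 1. The summed level of the endothelial markers was 1344 to 1729 normalized counts in the controls and 2171 to 3912 under hypoxia. The ratio of group means was 1.84. Ratios of the Krueppel-like factor sums ran from 0.68 for KLF8 to 6.33 for KLF6. The KLF7, KLF12 and KLF4 sums stood at 2.89, 2.41 and 2.32, and the KLF11 and KLF14 sums at 1.86 and 1.78. All hypoxia libraries lay above all controls in 13 of the 21 endothelial markers, where 12.4% of all genes did so. Other marker sums overlapped between groups, with ratios of 1.21 for hepatocyte, 1.28 for stellate cell and 1.18 for bile duct markers. The ratios were 1.83 for macrophage, 1.92 for erythroid and 1.94 for exocrine pancreas markers. The erythroid sum was 3663, 6088 and 1223 normalized counts in the controls and 1937, 4389 and 14753 under hypoxia. The exocrine pancreas sum was 56877, 132 and 6125 in the controls, lowest in control replicate 2, and 30950, 68139 and 23535 under hypoxia. By single genes, the change was above 0 in 17 of 21 endothelial (median log2 change 0.75) and 11 of 12 macrophage markers (1.17). It was above 0 in 16 of 18 bile duct (0.52) and 7 of 8 exocrine pancreas markers (2.72). No gene of the macrophage, bile duct and exocrine pancreas lists was called by limma or edgeR, and 2, 0 and 0 were by DESeq2. The change was above 0 in 14 of 22 stellate cell (0.16), 9 of 19 erythroid (-0.19) and 7 of 14 hepatocyte markers (-0.14). No stellate cell or erythroid gene was called by limma or edgeR. DESeq2 called 1 stellate cell gene as risen and 1 as fallen, and 2 erythroid genes as fallen. In the hepatocyte list 2 copies of APOA1 fell. No gene matched by name in the marker lists was at 0 in every library. Of the symbols chosen, 4 of 8 macrophage, 3 of 7 exocrine pancreas and 5 of 6 bile duct symbols matched a gene. The number matched was 6 of 8 for hepatocyte and for stellate cell markers, and 7 of 8 for endothelial and for erythroid markers. The part of changed cell shares in the Krueppel-like factor results was not tested.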

How the data were processed

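Liver RNA of 3 control and 3 hypoxia samples was sequenced by the authors. The submitters' processing notes name TopHat2 2.1.1 and Bowtie2 2.2.8. The counter, genome build, strandedness and treatment of shared reads are each not given in the sources used here. The deposited signal, although called FPKM, is a whole read count divided by a size factor per library, since every value lay within 0.000283 of a whole read. The authors also deposited a log2 fold change and p-value per gene from a test not given here.

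Values were compared as log2(normalized count + 1) with limma 3.58.1 (R 4.3.3, mean-variance trend), for genes with a mean of at least 1, because the deposited values are not raw counts. This scale understates changes of low genes. Recovered reads were tested with edgeR 4.0.16 and DESeq2 1.42.0 as alternatives. Copy pairs were tested within names of up to 12 copies. Fits with a library left out applied the filter to the libraries kept, which was settled after a first run. Counting intervals and floors cover counting error only. The intervals of copy pair differences come from limma and reflect the spread between libraries. Goldfish RefSeq (ASM336829v1) gave symbols, gene types and neighbours, and no coordinates or sequences were used. The members and lists were chosen with earlier results of these data known. Named genes were the called members, the copy of lowest p of each other number, the 3 of highest mean, and up to 3 called genes per list; others were added after their values were seen. The lists match deposited names only. Same-numbered control and hypoxia samples did not deviate together (correlations -0.070, -0.19 and -0.028), so the numbers were not used as pairs. The scripts were tested on simulated data.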

Additional observations from a re-analysis of the deposited data

How the results depend on the processing

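Both called KLF6 genes kept their call in all 15 alternatives, with adjusted p of at most 0.019 and 0.021. Under the other pseudocounts, filters, scalings and edgeR 5 or 6 members rose. DESeq2 called 13 members, with 1678 genes risen and 1067 fallen in all against 750 and 171 by limma, so that 61.1% of its calls were risen against 81.4%. Quantile normalization gave 274 fallen genes. With the replicate number as a replicate block, 3 members, 1 summed number, 354 risen and 61 fallen genes were called; the labels do not say that the numbers pair samples, the same-numbered deviations were not correlated, and 0 of 6 libraries correlated best with the library of its own number. With 1 library left out, 2 to 10 members and 1 to 4 summed numbers rose, and over all genes 285 to 1425 rose and 36 to 935 fell; the highest counts were those without control replicate 2. The cause was not tested. No alternative called a fallen member or a difference in the 19 copy pairs with a called gene; of all 69 pairs, 2 differed without control replicate 2. Of the 6 called members, Klf11 113117358 kept its call in 4 of 15 alternatives and lost it with the replicate block at adjusted p = 0.10 by limma.

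Changes of sign occurred only in members that were not called. KLF5 113109459, at 8.28e-05 in the limma test, gave -0.19 with a pseudocount of 5, -0.13 with quantile normalization, -1.14 with edgeR, -1.21 with DESeq2 and between -0.63 and 1.27 with a library left out. KLF5 113044473 gave 0.11 with a pseudocount of 0.5. With a library left out the log2 changes ran from -0.57 to 0.44 for KLF5 113044473, from -1.001 to 0.50 for Klf5 113038129, from -0.12 to 1.90 for KLF5 113070098, from -0.17 to 0.94 for Klf11 113120870, from -0.047 to 0.32 for Klf13 113046022, from -0.077 to 0.75 for Klf15 113065736, from -0.50 to 0.016 for Klf16 113059687 and from -0.53 to 1.64 for summed KLF5. Apart from KLF5 113070098, the KLF5 genes had at most 13.01 normalized counts in any library.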
